A study of Solanum lycopersicum with 9 samples.

Results

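The CRISPR-edited tomato line c2.11 was compared with its wild type (WT) by RNA sequencing of the locular tissue, the gel that grows around the seeds of the fruit. The comparison uses 6 of the series' 9 libraries, 3 of c2.11 and 3 of WT, chosen by their genotype labels and not by any measured value. The other 3 libraries come from c2.5, a second line edited in the same gene, SlZFP2, and serve here to show where c2.11 differs from it. Plants of all 3 genotypes were of the dwarf cultivar Micro-Tom and were grown in one greenhouse regime with long days. Fruits were picked 6 days after anthesis, the locular tissue was dissected by hand, and developing seeds were taken out. Each library held RNA of tissue pooled from 6 fruits. The labels give no sequence or number of edited alleles for either line, no treatment, and no statement of whether the pools came from separate plants, although the series calls them biological replicates. The p-values therefore measure the spread between pools, which may in part be technical.

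SlZFP2 is a small zinc finger protein of tomato, known as a repressor of transcription that limits abscisic acid synthesis and takes part in fruit set and ripening. Locular tissue is a tissue of the placenta whose cells divide, then expand and liquefy as the fruit grows. D-class and C-class MADS factors mark it, and like other green fruit tissue it holds chloroplasts and makes bitter steroidal glycoalkaloids, which are lost as tomato fruit ripens.

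The deposited table names genes by Solyc identifier alone, and 0 of its 34075 identifiers occur in the RefSeq gene table of assembly SLM_r2.1, which has the symbols. Gene names here are pairings from general knowledge of tomato genes that neither table states. A pairing was used where the RefSeq table has the same symbol or synonym on the same chromosome, in the same gene order and at nearly the same rank along the chromosome. Of 263 pairings 207 passed, with a median distance of 0.99 and at most 6.70 percentile points of gene order, and the 56 others are not used. The check cannot separate neighbouring copies of a family, so the polyphenol oxidase, proteinase inhibitor I, chlorophyll a/b-binding protein 1, GAME and JRE copies are uncertain as single genes and firmer as families. Of the 207 genes, 178 passed the filter on low counts and were tested, and 29 did not.

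The libraries were of like depth, with 20033043 to 20727310 counts in c2.11 and 20127741 to 20219360 in WT. Genes with a count numbered 22334 to 22474 in c2.11 and 22331 to 22960 in WT. The 10 most abundant genes took 3.64% to 3.95% of counts in c2.11 and 6.24% to 7.61% in WT, without overlap (two-sided exact permutation test, p = 0.1, the smallest that 3 against 3 libraries allow). Normalization by trimmed mean of M values (TMM) is meant to compensate for this, and whether it does so fully was not tested. Levels below are normalized CPM, counts scaled to a common library total after TMM. With scaling by total counts instead, the median log2 fold change of all tested genes moved from 0.01 to 0.28, so that changes are stated relative to the bulk of genes. The summed level of the locular markers AGL11, MBP3, TAG1 and TAGL1 was 641 to 669.8 CPM in c2.11 and 543 to 574 CPM in WT. The seed factor ABI3 had 0 counts in each of these 6 libraries, which allows at most 3 counts per library. ABI3 was the only seed marker that could be paired, and no library of seeds shows whether it registers at this age. Carry-over of seed tissue was therefore not tested. The phloem sucrose transporter SUT1 ranged over 24.4 to 28.1 CPM in c2.11 and 14.6 to 26.4 CPM in WT, and these ranges overlapped.

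The transcript of the edited gene was not lower in the line. SlZFP2 (Solyc07g006880) stood at 82.2, 82.9 and 88.2 CPM in the 3 WT libraries and at 454, 459 and 487 CPM in the 3 c2.11 libraries. The groups lay far apart and each of them was tight. The rise was 5.52-fold (log2 fold change 2.47, SE 0.06, edgeR adjusted p = 5.14e-11). In c2.5 the level was 462 ± 17.9 CPM (mean ± SD, n = 3), and c2.11 and c2.5 did not differ detectably in it (log2 difference 0.01, SE 0.05, edgeR adjusted p = 0.948). A count per gene does not read the edit itself. The identifier first noted for this gene stood 57.68 percentile points from the RefSeq position of ZFP2 and was replaced by one that stood 0.15 points from it.

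Across all 19358 tested genes, 5284 were higher in c2.11 (27.3% of those tested) and 5285 lower (27.3%), 54.6% in all, at an edgeR adjusted p under 0.05. Of these, 1528 rose and 1357 fell by 2-fold or more, and 291 rose and 463 fell by 4-fold or more. Among the 178 tested known genes, 56 rose, 69 fell and 53 were not called, 70.2% called beside the 54.6% of all genes. The lists were picked for fruit biology with earlier results of these data known, and nothing particular to them is read from that share. Their median log2 fold change was -0.07, beside 0.01 for all genes. Changes of 2-fold or more numbered 29 upward and 36 downward, and in 123 of the 125 called genes the c2.11 and WT libraries did not overlap. Over all tested genes the same held for 5156 of the 5284 higher and 5126 of the 5285 lower calls, so that nothing about the known genes is read from it. Among lists with at least 2 tested members, those with every one called in one direction were photosynthesis, the chlorophyll a/b-binding 1 pair and the fruit size pair, all lower. The auxin, cell wall, cell cycle, gibberellin, ethylene, cuticle, polyphenol oxidase and MADS lists held more higher than lower calls. Nothing is read from such an excess in short lists. The shares of all genes, 27.3% higher and 27.3% lower, stand beside every list count given below. RNA of the whole tissue was sequenced, so fewer cells of a kind and less RNA per cell cannot be told apart in any of these values.

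**Figure D1:**
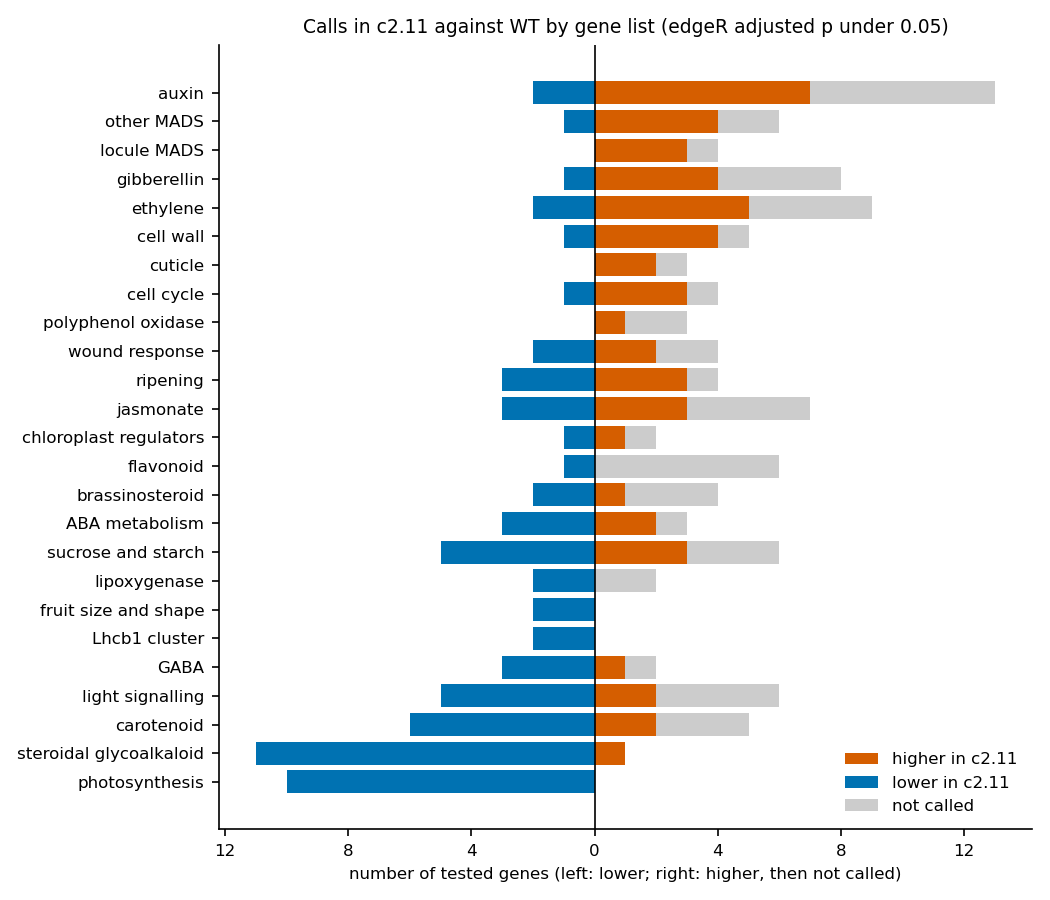
Calls in c2.11 against WT for each list of known genes: bars to the left count tested genes called lower, bars to the right those called higher followed by those not called (edgeR adjusted p under 0.05, 3 libraries a side). The steroidal glycoalkaloid list has 11 genes lower and 1 higher, photosynthesis has 10 lower of 10, and auxin has 7 higher and 2 lower of 15.

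Genes of steroidal glycoalkaloid synthesis were lower in c2.11 with 1 exception. Of 9 GAME enzymes tested, 8 fell and 1 rose, with a median log2 fold change of -1.74, and their summed level was 10535 to 12861 CPM in c2.11 against 30203 to 43815 CPM in WT. GAME11, a dioxygenase of the pathway, took 1.74% to 2.37% of all counts in the WT libraries and 0.702% to 0.836% in c2.11. Its level stood at 19086, 27256 and 26319 CPM in the WT libraries and at 7308, 7941 and 6562 CPM in c2.11. The highest c2.11 library stood far below the lowest WT library, and the fall was 3.33-fold (log2 fold change -1.74, SE 0.12, edgeR adjusted p = 4.11e-07). GAME12, the transaminase that sets the nitrogen into the steroid, fell by 2.15 on the log2 scale (edgeR adjusted p = 2.75e-05), from 3867, 6139.7 and 5937 CPM to 1249.6, 1357 and 982 CPM. The cytochromes P450 GAME4, GAME6 and GAME7 had log2 fold changes of -1.78, -0.91 and -2.45. The glycosyltransferases GAME1, GAME17 and GAME18, which attach the sugars, had -1.24, -1.50 and -2.02 on the same scale. GAME2, a further glycosyltransferase, was the exception and rose, with 0.109, 0.398 and 0.116 CPM in WT and 2.0002, 1.74 and 1.35 CPM in c2.11 (log2 fold change 3.001, SE 0.47, edgeR adjusted p = 0.000156).

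Tomato uses the ethylene response factors of the JRE cluster to switch on glycoalkaloid genes in response to jasmonate. Of the 5 paired, the 3 that were tested were lower too, and JRE3 and JRE5 did not pass the filter. JRE4, the member best known as an activator of the pathway, stood at 187, 245 and 218 CPM in WT and at 76.5, 76.4 and 69.5 CPM in c2.11 (log2 fold change -1.55, SE 0.09, edgeR adjusted p = 3.81e-08). JRE1 had 84, 101 and 75 counts in the WT libraries and 0 in each c2.11 library, at least 105-fold lower against a floor of 3 counts over the 3 libraries. JRE2 had 73, 116 and 49 counts in WT and 4, 4 and 9 in c2.11 (log2 fold change -4.06, SE 0.44, edgeR adjusted p = 7.96e-06). No c2.11 library reached a WT library for any of the 3 tested factors. With total count scaling the numbers of calls were the same, 8 GAME enzymes lower and 1 higher and 3 JRE factors lower.

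**Figure D2:**
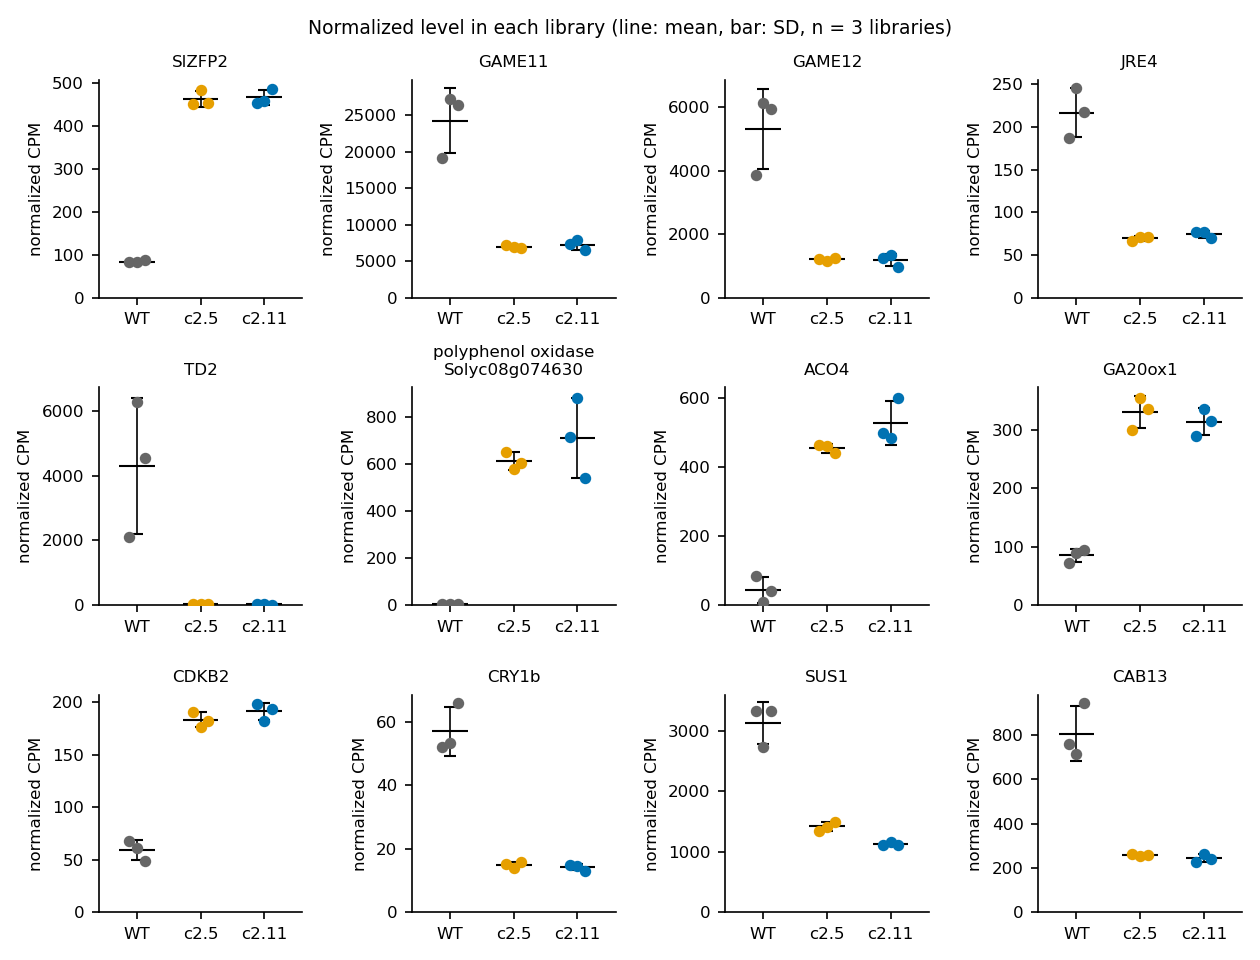
Normalized level (CPM) of 12 genes in each library of WT, c2.5 and c2.11: points are libraries, the horizontal line is the mean and the bar the SD (n = 3), and each panel has its own axis from 0. SlZFP2 lies at 454 to 487 CPM in c2.11 above 82.2 to 88.2 CPM in WT, GAME11, GAME12, JRE4, TD2, CRY1b, SUS1 and CAB13 lie lower in c2.11, and both lines lie on the same side of WT in every panel.

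Genes of wounding and jasmonate moved in both directions. The list of wound response genes had 2 higher, 2 lower and 2 not called of 6. Threonine deaminase TD2, a protein that deprives feeding caterpillars of threonine, showed the largest fall among the tested known genes with counts in both groups. Its level was 2109, 6298 and 4546 CPM in WT and 26.6, 19.7 and 14.4 CPM in c2.11. WT libraries differed widely from each other, yet the lowest stood far above every c2.11 library (log2 fold change -7.74, SE 0.57, edgeR adjusted p = 4.47e-05). Leucine aminopeptidase LAPA1, another jasmonate-induced defence protein, fell from 62.8, 111 and 65.1 CPM to 12.2, 21.0 and 7.28 CPM (log2 fold change -2.56, SE 0.43, edgeR adjusted p = 0.00243). Of 3 neighbouring copies of proteinase inhibitor I, Solyc09g084480 rose from 1.69, 2.44 and 2.49 CPM to 35.0, 28.8 and 17.3 CPM (log2 fold change 3.62, SE 0.35, edgeR adjusted p = 7.16e-05), Solyc09g084470 rose (log2 fold change 1.32, edgeR adjusted p = 0.0204), and Solyc09g084490 overlapped between the groups. The call for Solyc09g084470 was lost without WT replicate 1, WT replicate 2 or c2.11 replicate 1.

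Polyphenol oxidase, which browns cut fruit by oxidizing phenols, gave the largest rise among the known genes. The copy Solyc08g074630 stood at 3.43, 3.41 and 3.07 CPM in WT and at 713, 880.0 and 538 CPM in c2.11, 215-fold higher (log2 fold change 7.75, SE 0.22, edgeR adjusted p = 2.55e-08). The copies Solyc08g074620 and Solyc08g074683 overlapped between the groups, at 56.4 to 109 and 15.2 to 41.9 CPM in c2.11 and 85.0 to 111 and 30.6 to 47.6 CPM in WT. Counts of such near-identical copies depend on how reads that match several copies were assigned, which the sources used here do not give.

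Jasmonate genes had 3 higher, 3 lower and 4 not called of 10. The early enzymes of synthesis rose: allene oxide synthase AOS2 from 9.46, 9.99 and 11.1 to 46.2, 43.0 and 40.6 CPM (log2 fold change 2.09, SE 0.08, edgeR adjusted p = 1.30e-09), AOS1 with a log2 fold change of 1.44 and lipoxygenase LOXD with 1.34. The later enzymes allene oxide cyclase AOC and the reductase OPR3 had -0.75 and -0.23 on the same scale, and MYC2, the central bHLH factor of jasmonate response, fell from between 45.5 and 50.6 CPM in WT to between 29.0 and 29.8 CPM in c2.11 (edgeR adjusted p = 1.80e-05). OPR3 was not called with total count scaling. The receptor COI1, the conjugating enzyme JAR1 and the repressors JAZ2 and JAZ3 were not called. Among lipoxygenases outside this pathway, LOXB fell from 7.72, 6.64 and 9.16 CPM to 0.512, 0.321 and 0.327 CPM (log2 fold change -4.32, SE 0.24, edgeR adjusted p = 2.06e-08) and hydroperoxide lyase HPL fell too (-0.58 on the log2 scale). LOXA ranged over 2.78 to 24.0 CPM in WT and 0.825 to 1.91 CPM in c2.11 and was not called (edgeR adjusted p = 0.0519).

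Photosynthesis genes were lower throughout. All 12 tested genes of light harvesting and of the Rubisco small subunit fell, with a median log2 fold change of -1.15, and they fell also with total count scaling. Their summed level was 5239 to 5788 CPM in c2.11 and 11602 to 15461 CPM in WT. The falls ran from -0.76 on the log2 scale in CAB10A, a photosystem antenna protein, to -3.96 in CAB1A. CAB1A stood at 547, 368 and 718 CPM in WT and at 35.6, 36.8 and 32.7 CPM in c2.11 (log2 fold change -3.96, SE 0.26, edgeR adjusted p = 1.28e-05). CAB5 and CAB13, further chlorophyll a/b-binding proteins, had log2 fold changes of -2.91 and -1.72. RBCS2, a Rubisco small subunit gene, stood at 2765, 2569 and 3389.5 CPM in WT and at 1196, 1319 and 1381 CPM in c2.11 (log2 fold change -1.16, SE 0.10, edgeR adjusted p = 1.17e-06). WT replicate 2 was the lowest and WT replicate 3 the highest WT library for CAB1A, CAB5, CAB13 and RBCS2, and c2.11 lay below both.

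Of 3 tested regulators of fruit chloroplasts, the homeobox gene TKN2 rose, ARF4 fell and TKN4 was not called. TKN2 stood at 0.979, 0.568 and 3.71 CPM in WT and at 12.001, 17.2 and 8.07 CPM in c2.11 (log2 fold change 2.84, SE 0.60, edgeR adjusted p = 0.00609), with 1 WT library above the others. ARF4, an auxin response factor of fruit chloroplasts and sugars, moved from between 149 and 178 CPM in WT to between 109 and 129 CPM in c2.11 (log2 fold change -0.43, SE 0.08, edgeR adjusted p = 0.000695), and its call was lost with total count scaling (edgeR adjusted p = 0.0994). The chloroplast factors GLK1 and GLK2 did not pass the filter.

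Photoreceptors did not move as one. Of 11 light signalling genes 2 rose, 5 fell and 4 were not called. The blue light receptor CRY1b fell from 51.9, 53.3 and 65.8 CPM in WT to 14.8, 14.6 and 13.1 CPM in c2.11 (log2 fold change -2.01, SE 0.10, edgeR adjusted p = 7.18e-09). The phytochrome PHYB1 fell from 139, 152 and 179 CPM to 66.3, 64.5 and 72.016 CPM (log2 fold change -1.21, SE 0.09, edgeR adjusted p = 2.04e-07). Their relatives CRY1a and PHYA had log2 fold changes of 0.18 and 0.17, and PHYB2 was not called. The CRY1a call was lost without WT replicate 1 or c2.11 replicate 1, and the PHYA call without WT replicate 2, WT replicate 3, c2.11 replicate 1 or c2.11 replicate 2. CRY2, DET1 and PHYF had small falls (-0.27, -0.37 and -0.27) that were not called with total count scaling, and the light response factor HY5 was not called.

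Genes that bring in and store sugar split by enzyme. Sucrose synthase SUS1, which splits sucrose in young fruit, fell from 3335, 2734 and 3337 CPM to 1121, 1165 and 1114 CPM (log2 fold change -1.47, SE 0.08, edgeR adjusted p = 1.81e-08). The vacuolar invertase VI fell from 280.4, 281 and 325 CPM to 111, 109 and 105 CPM (log2 fold change -1.45, SE 0.07, edgeR adjusted p = 5.43e-09). SUS3, the granule-bound starch synthase GBSS1 and the ADP-glucose pyrophosphorylase subunit AGPL2, both enzymes of starch synthesis, had log2 fold changes of -0.99, -0.89 and -0.56. The cell wall invertase LIN5, known for its part in tomato sugar content, moved the other way, rising from 86.6, 85.5 and 74.2 CPM to 195, 227 and 194 CPM (log2 fold change 1.32, SE 0.09, edgeR adjusted p = 4.69e-07). The sucrose transporter SUT4 rose (0.68 on the log2 scale) and SUT2 was not called. In all, 3 of 11 genes rose, 5 fell and 3 were not called.

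Abscisic acid genes, the pathway that SlZFP2 is known to restrain, had 2 higher, 3 lower and 1 not called of 6. NCED1, the enzyme known to limit abscisic acid synthesis in fruit, ranged over 10.6 to 13.3 CPM in c2.11 and 8.26 to 17.8 CPM in WT and was not called (log2 fold change 0.03, SE 0.29, edgeR adjusted p = 0.933). Its relative NCED2 rose from 32.5, 26.5 and 41.4 CPM to 65.3, 65.0 and 67.0 CPM (log2 fold change 0.98, SE 0.14, edgeR adjusted p = 0.00024). The hydroxylase CYP707A1, which breaks abscisic acid down, rose from 40.4, 61.9 and 47.7 CPM to 106, 149 and 94.5 CPM (log2 fold change 1.22, SE 0.21, edgeR adjusted p = 0.00176). Enzymes before and after the NCED step fell: zeaxanthin epoxidase ZEP from between 90.3 and 118 CPM in WT to between 43.0 and 44.7 CPM in c2.11 (edgeR adjusted p = 1.05e-06) and the sulfurase FLC, which activates the last enzyme of synthesis, with a log2 fold change of -0.81. The response factor AREB1 had -0.34 and was not called with total count scaling.

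Gibberellin genes had 4 higher, 1 lower and 4 not called of 9. GA20ox1, an oxidase that makes gibberellin precursors in the growing fruit, stood at 72.4, 89.2 and 94.1 CPM in WT and at 290.4, 337 and 315 CPM in c2.11 (log2 fold change 1.88, SE 0.10, edgeR adjusted p = 7.52e-08). The activating oxidase GA3ox1 rose at a low level (0.454 to 0.812 CPM in WT, 1.17 to 2.71 CPM in c2.11). The inactivating oxidases GA2ox1 and GA2ox5 rose too, with log2 fold changes of 0.92 and 1.80. GA2ox2 had -1.82 from 1.87 to 4.02 CPM in WT, a call lost without WT replicate 1, c2.11 replicate 2 or c2.11 replicate 3. The DELLA repressor PROCERA and the receptors GID1b1 and GID1b2 were not called.

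Of 15 auxin genes 7 rose, 2 fell and 6 were not called. The auxin efflux carrier PIN9 rose from 14.951, 13.4 and 11.9 CPM to 35.1, 37.8 and 34.7 CPM (log2 fold change 1.42, SE 0.08, edgeR adjusted p = 3.19e-08) and PIN3 with a log2 fold change of 0.45, while PIN4 fell from between 321 and 366 CPM in WT to between 213 and 251 CPM in c2.11 (edgeR adjusted p = 1.64e-05). The summed level of the 5 PIN carriers was 362 to 401 CPM in c2.11 and 418 to 473 CPM in WT. Among the Aux/IAA repressors, IAA27 rose (1.03 on the log2 scale) and IAA17 fell (-0.72). With total count scaling PIN4 and IAA17 were still lower. ARF2a, which in tomato acts in ripening, rose (0.67), and 5 of 7 auxin response factors were not called. The synthesis gene FZY ranged over 2.45 to 3.46 CPM in WT and 3.36 to 5.64 CPM in c2.11, ranges that overlapped although the gene was called (edgeR adjusted p = 0.0384), and 7 alternatives ended that call.

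Ethylene synthesis genes changed by copy. ACO4, an ACC oxidase that makes ethylene, stood at 84.1, 10.1 and 40.1 CPM in WT and at 499, 484 and 601 CPM in c2.11 (log2 fold change 3.56, SE 0.67, edgeR adjusted p = 0.00449), and WT libraries differed widely among themselves. ACO1, the copy known for ripening, had 41, 61 and 82 counts in WT and 3, 9 and 1 in c2.11 (log2 fold change -4.07, SE 0.51, edgeR adjusted p = 3.01e-05). The ACC synthase ACS1A rose (1.53 on the log2 scale). Of 5 receptors, ETR2 fell (-0.46), a call lost with total count scaling (edgeR adjusted p = 0.0792), and ETR1, NR, ETR4 and ETR5 were not called. The signal transducer EIN2 and the F-box protein EBF1 had small rises of 0.18 and 0.24. The EIN2 call was lost without WT replicate 3, c2.11 replicate 1 or c2.11 replicate 3, and the EBF1 call without WT replicate 2, c2.11 replicate 1 or c2.11 replicate 3. In all, 5 of 11 genes rose, 2 fell and 4 were not called.

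Among brassinosteroid genes, the synthesis enzyme CPD fell from 153, 205 and 158 CPM to 42.9, 36.9 and 45.0 CPM (log2 fold change -2.05, SE 0.12, edgeR adjusted p = 3.03e-07), and the receptor BRI1 rose from between 87.6 and 103 CPM in WT to between 126 and 137 CPM in c2.11 (edgeR adjusted p = 0.000132). CYP85A3, a late synthesis enzyme, had 29, 10 and 16 counts in WT and 0 in each c2.11 library, at least 22.1-fold lower against the floor of 3 counts over 3 libraries (edgeR adjusted p = 0.0386), and the call was lost in each fit that left out a WT or c2.11 library, with no filter on low counts and with the replicate number as a block, where the edgeR adjusted p was highest at 0.13. DWARF, the enzyme mutated in Micro-Tom, was not called. The list had 1 higher, 2 lower and 3 not called of 6.

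**Figure D3:**
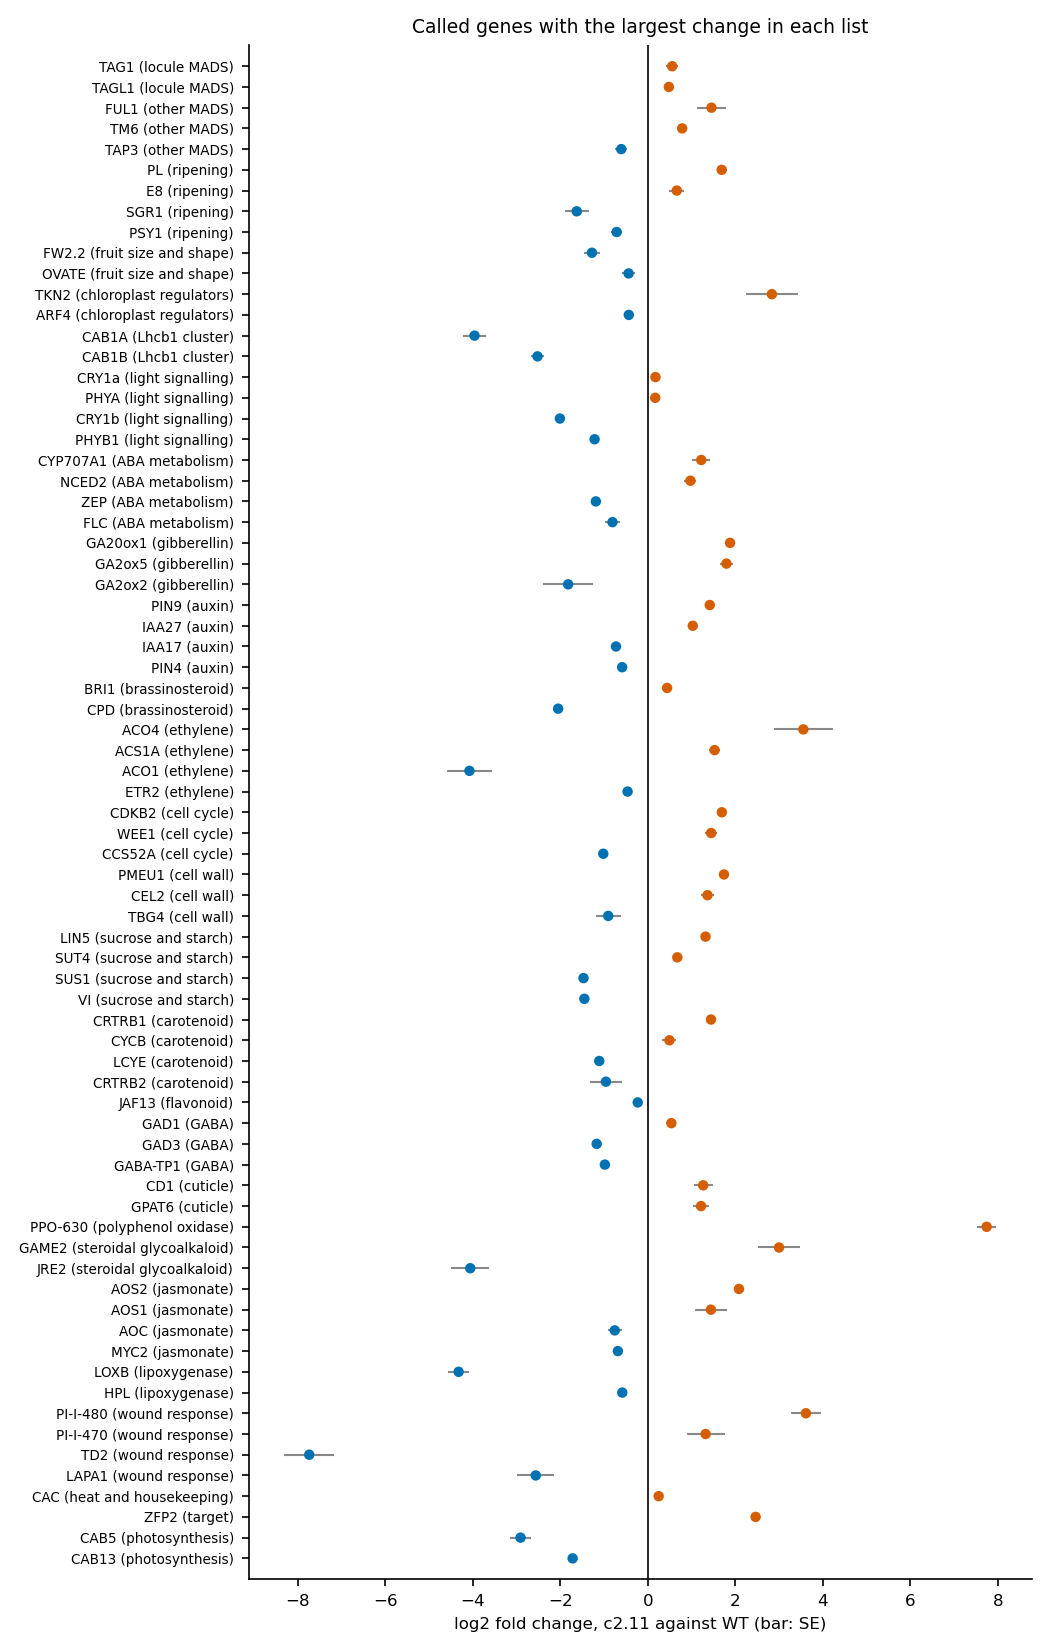
Log2 fold change of c2.11 against WT (point) with its SE (bar, 3 libraries a side) for the called genes with the largest change per list, up to 2 per direction; genes with 0 counts in c2.11 are left out. PPO-630, the polyphenol oxidase copy Solyc08g074630, lies farthest right at 7.75 and TD2 farthest left at -7.74, and PI-I-470 and PI-I-480 are proteinase inhibitor I copies.

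Cell cycle and growth genes of the young fruit also differed. CDKB2, a kinase made in dividing cells, stood at 67.7, 60.8 and 48.7 CPM in WT and at 198, 182 and 194 CPM in c2.11 (log2 fold change 1.69, SE 0.10, edgeR adjusted p = 1.14e-07). The D-type cyclin CYCD3;1 and the mitosis-delaying kinase WEE1 rose as well (0.69 and 1.45 on the log2 scale). CCS52A, which takes tomato fruit cells from division into endoreduplication, fell from 43.7, 40.8 and 44.8 CPM to 21.0, 20.7 and 22.3 CPM (log2 fold change -1.02, SE 0.06, edgeR adjusted p = 6.33e-08). CDKA1, a kinase present through the whole cycle, was not called (edgeR adjusted p = 0.0501), so that 3 of 5 rose and 1 fell. FW2.2, which restrains cell number in tomato fruit, fell from 9.68, 10.3 and 11.5 CPM to 4.93, 4.03 and 4.01 CPM (log2 fold change -1.27, SE 0.18, edgeR adjusted p = 7.13e-05). The fruit shape gene OVATE had a log2 fold change of -0.44, a call lost with DESeq2, with total count scaling and without WT replicate 2, WT replicate 3, c2.11 replicate 1 or c2.11 replicate 3.

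Of 6 genes that loosen the cell wall 4 rose, 1 fell and 1 was not called. The pectin methylesterase PMEU1 rose from 110.5, 97.9 and 110.0 CPM to 362, 401 and 302 CPM (log2 fold change 1.74, SE 0.09, edgeR adjusted p = 3.81e-08). The expansins EXP1 and EXP5 and the endoglucanase CEL2 had log2 fold changes of 1.29, 0.93 and 1.37. The beta-galactosidase TBG4 fell (-0.90), a call that 5 alternatives ended. Pectate lyase PL, which softens ripening tomato, rose from 6.20, 4.32 and 5.97 CPM to 17.2, 18.6 and 17.5 CPM (log2 fold change 1.69, SE 0.12, edgeR adjusted p = 1.44e-07).

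Tissue identity genes of the MADS family were slightly higher. Of the 4 locular markers, TAG1 and TAGL1, the C-class factors, and AGL11, a D-class factor, rose, and MBP3 was not called (edgeR adjusted p = 0.0773). TAGL1, which in tomato drives the fleshy fruit wall, stood at 71.3, 58.7 and 67.1 CPM in WT and at 91.2, 92.8 and 91.6 CPM in c2.11 (log2 fold change 0.48, SE 0.07, edgeR adjusted p = 5.03e-05). TAG1 and AGL11 had log2 fold changes of 0.56 and 0.22, and the AGL11 call was lost without c2.11 replicate 2. Among 7 other MADS genes 4 rose, 1 fell and 2 were not called. The E-class factors TM5 and TM29 rose by 0.75 and 0.56 on the log2 scale, the B-class factor TM6 by 0.79 and the FRUITFULL gene FUL1 by 1.46 from 9, 13 and 21 counts in WT, and the B-class factor TAP3 fell.

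Ripening genes were low or mixed. RIN and NOR, the MADS and NAC factors that start ripening, and the polygalacturonase PG2a did not pass the filter, and none of the 3 exceeded 0.058 CPM in any c2.11 or WT library. Of 7 tested genes 3 rose, 3 fell and 1 was not called. AP2a, which limits ripening, rose from between 16.1 and 18.3 CPM in WT to between 25.9 and 28.2 CPM in c2.11, and the ethylene-responsive E8 had a log2 fold change of 0.66. The chlorophyll breakdown gene SGR1 fell at a low level from between 1.62 and 2.501 CPM in WT to between 0.596 and 0.837 CPM in c2.11 (log2 fold change -1.62, SE 0.27, edgeR adjusted p = 0.000261). The fruit phytoene synthase PSY1 fell from 81.4, 58.8 and 81.4 CPM to 45.7, 42.9 and 47.0 CPM (log2 fold change -0.71, SE 0.13, edgeR adjusted p = 0.00153), and E4, with -0.35, was not called with total count scaling.

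Carotenoid genes had 2 higher, 6 lower and 3 not called of 11. The desaturases PDS and ZDS fell (-0.78 and -0.63 on the log2 scale), as did LCYE, the cyclase that leads to lutein, from between 59.9 and 74.7 CPM in WT to between 31.6 and 32.8 CPM in c2.11 (log2 fold change -1.11, SE 0.08, edgeR adjusted p = 2.14e-07). The hydroxylase CRTRB1 rose from 17.0, 12.7 and 13.3 CPM to 37.8, 41.8 and 37.6 CPM (log2 fold change 1.45, SE 0.10, edgeR adjusted p = 1.23e-07). CYCB, CRTRB2, CRTISO and DXS1 had 0.50, -0.96, -0.25 and -0.29, and each lost its call under at least 1 alternative, CRTISO and DXS1 with total count scaling, CYCB without WT replicate 2, WT replicate 3 or c2.11 replicate 1, and CRTRB2 with DESeq2 among others. Of 7 tested flavonoid genes 6 were not called. The chalcone synthases CHS1 and CHS2 ranged over 1.33 to 7.65 and 0.930 to 9.29 CPM in c2.11 and overlapped with WT. The bHLH factor JAF13 was called lower (-0.23 on the log2 scale) but had 0.05 with total count scaling.

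The pathway of GABA, an amino acid that tomato fruit stores while green, had 1 gene higher, 3 lower and 1 not called of 5. The glutamate decarboxylase GAD3, which makes GABA, fell from 1025, 1250.1 and 1225 CPM in WT to 511, 529 and 519 CPM in c2.11 (log2 fold change -1.17, SE 0.07, edgeR adjusted p = 6.34e-08). The enzymes that remove GABA, the transaminase GABA-TP1 and the dehydrogenase SSADH, fell as well (-0.98 and -0.86 on the log2 scale). GAD1 rose (4.9974 to 6.47 CPM in WT, 8.07 to 8.51 CPM in c2.11) and GAD2 was not called.

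Genes of the cuticle, which the epidermis makes, were higher in 2 of 3 tested. The cutin synthase CD1 rose from 24.6, 21.4 and 18.7 CPM to 46.4, 40.9 and 68.4 CPM (log2 fold change 1.27, SE 0.22, edgeR adjusted p = 0.00173) and the acyltransferase GPAT6 had a log2 fold change of 1.22. CD2, the epidermal homeobox factor, was not called and ranged over 29.7 to 32.7 CPM in c2.11 and 31.7 to 34.1 CPM in WT, and the wax gene CER6 did not pass the filter. Summed over these 4 epidermal markers the level was 76.7 to 111 CPM in c2.11 and 53.4 to 63.0 CPM in WT, none of the 4 being at 0. Whether the pools held unequal amounts of epidermis, and its part in the other results, was not tested.

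The changes of c2.11 were set beside those of c2.5, which share the WT libraries, so that a likeness of both comparisons against WT carries no weight by itself. Against WT, c2.5 had 9667 called genes (49.9% of those tested). Of the 178 known genes, 113 were called in the same direction in both lines, 12 in c2.11 but not in c2.5, 6 in c2.5 but not in c2.11, and 0 in opposite directions. The direct contrast of c2.11 with c2.5, in which WT plays no part, called 249 genes, 137 higher and 112 lower in c2.11 (1.29% of those tested). It called 2 of the 178 known genes, close to that background.

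TAP3, a B-class MADS gene known for petals and stamens, was lower in both lines and less so in c2.11. Its level was 22.1, 20.0 and 26.1 CPM in WT, 14.0, 14.3 and 16.5 CPM in c2.11 and 9.32, 6.05 and 8.34 CPM in c2.5. None of the 3 groups overlapped (log2 difference 0.92, SE 0.15, edgeR adjusted p = 0.0166 between the lines). Against WT the log2 fold change was -0.61 in c2.11 and -1.52 in c2.5, and the c2.11 call was lost with total count scaling (edgeR adjusted p = 0.0603). GAD3 was lower in both lines and more so in c2.11. It stood at 676, 697 and 639 CPM in c2.5, above every c2.11 library (log2 difference -0.37, SE 0.07, edgeR adjusted p = 0.0317 between the lines), with log2 fold changes against WT of -1.17 in c2.11 and -0.80 in c2.5. The difference of TAP3 between the lines lost its call without any one c2.11 library or without c2.5 replicate 3 (edgeR adjusted p up to 0.0691), and that of GAD3 without any one library of either line (edgeR adjusted p up to 0.162).

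The 12 known genes called in c2.11 and not in c2.5 were TAG1, FUL1, OVATE, PHYF, CRY2, DET1, IAA3, FZY, CYP85A3, CRTRB2, GAME2 and the proteinase inhibitor copy Solyc09g084470. None of them was called in the direct contrast of the lines (edgeR adjusted p from 0.0630 to 0.884), so their change is not shown to belong to c2.11 alone. GAME2 came nearest, with 0.417, 0.331 and 0.830 CPM in c2.5 (log2 difference 1.68, SE 0.39, edgeR adjusted p = 0.063). FUL1 had log2 fold changes against WT of 1.46 in c2.11 and 0.77 in c2.5, and TAG1 had 0.56 and 0.22. The 6 genes called in c2.5 alone against WT were CNR, GA2ox4, BZR1, ETR5, SUT2 and JAZ2, and none of these was called between the lines either.

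Over all genes, 2013 were called in c2.11 and not in c2.5, and 1914 of these were not called in the direct contrast of the lines, 1858 of the 2013 having the same sign in c2.5. The 99 that were called (0.511% of those tested) comprised 67 higher and 32 lower in c2.11. That number rests on single libraries: it was 14 to 38 when any one c2.11 or c2.5 library was left out and 114 to 137 without a WT library, and it was 51 with total count scaling, 175 with DESeq2 and 227 with only the compared genotypes. The values that follow describe the 99 of the fit over all 9 libraries. The 67 had a median level of 139 CPM in c2.11, a median log2 fold change of 0.35 against WT and 11 members at 2-fold or more. The 32 had a median level of 2.86 CPM in c2.11, a median log2 fold change of -0.93 and 14 members at 2-fold or more. In c2.5 the same sets had medians of 0.01 and 0.04 against WT. The choice of genes not called in c2.5 largely fixes these medians, so they are no evidence that c2.5 was unchanged. The mean level of c2.5 lay between those of WT and c2.11 in 35 of the 67 and 14 of the 32. A change in c2.11 alone thus refers to the calls and does not mean that c2.5 stayed at the WT level. None of the 178 tested known genes was among the 99. Beside the share of 0.511% over all tested genes, nothing about the known genes is read from this.

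**Figure D4:**
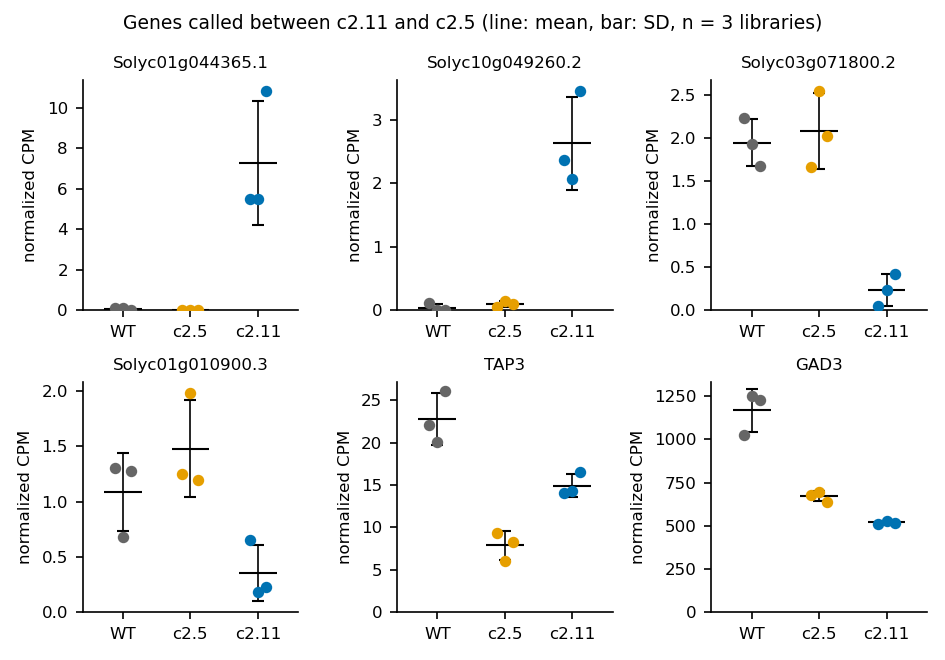
Normalized level (CPM) in each library of WT, c2.5 and c2.11 for 4 unannotated identifiers among the genes changed in c2.11 alone, and for TAP3 and GAD3, which fell in both lines by unequal amounts: points are libraries, the line is the mean and the bar the SD (n = 3). Solyc01g044365.1 lies at 5.49 to 10.8 CPM in c2.11 and near 0 in the other genotypes, and c2.5 lies below c2.11 for TAP3 and above it for GAD3.

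Described here are the 2 identifiers per direction with the largest difference from c2.5 among those of the 99 whose mean level reached 1 CPM in c2.11 or WT, and they carry no name in the tables used here. Some identifiers below that level had larger differences than the second of each direction. Solyc01g044365.1 had 118, 120 and 232 counts in the c2.11 libraries, 0 in each c2.5 library and 2, 2 and 0 in WT. It was at least 156-fold higher than in c2.5, against a floor of 3 counts over 3 libraries. Against WT it was 96.6-fold higher, with an exact 95% interval of 37.5 to 356 that covers counting error only. Solyc10g049260.2 had 51, 45 and 74 counts in c2.11, 1, 3 and 2 in c2.5 and 2, 0 and 0 in WT. Its ratio to WT was 69.9 with an exact 95% interval of 19.1 to 582, which covers counting error only. In the other direction, Solyc03g071800.2 had 1, 5 and 9 counts in c2.11 beside 36, 54 and 44 in c2.5 and 41, 34 and 29 in WT (log2 difference -3.13, SE 0.42, edgeR adjusted p = 0.00296 between the lines). Solyc01g010900.3 had 14, 4 and 5 counts in c2.11, 27, 42 and 26 in c2.5 and 24, 12 and 22 in WT (log2 difference -2.04, SE 0.44, edgeR adjusted p = 0.0458), and its call between the lines was lost with the replicate number as a block and without WT replicate 3, c2.11 replicate 2, c2.11 replicate 3 or any one c2.5 library (edgeR adjusted p up to 0.195). The c2.11 libraries did not overlap with WT for any of the 4, as for all 67 higher and all 32 lower genes of the 99. This largely follows from choosing called genes and adds no support.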

How the data were processed

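Stranded mRNA libraries were read as pairs of 150 bases, per the labels' protocols. The authors deposited raw whole-number counts per gene for 34075 identifiers in 9 libraries. FastQC and featureCounts stand in the submitters' processing notes, without versions. Neither names an aligner, genome build, annotation, strand setting or rule for multiply mapped reads (not given in the sources used here). Overlapping, antisense and near-identical genes may thus share reads, and coordinates are left out.

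Counts were tested with edgeR 4.0.16 (R 4.3.3) over all 9 libraries: filterByExpr, which kept 19358 genes, TMM factors, robust quasi-likelihood fit, Benjamini-Hochberg adjustment over all tested genes, threshold 0.05. SEs were derived from the size of the log2 fold change and the F statistic. The fit was tried on simulated counts in which far fewer genes changed than were called here. That trial therefore does not bear on the scaling or the number of calls in these data. Measures per library were set against each other by exact permutation, two-sided, in Python with scipy 1.17.1. A gene counts as changed in c2.11 alone if called against WT, called against c2.5, and not called in c2.5 against WT. DESeq2 1.42.0, other scalings and filters, fits on fewer genotypes, a replicate block and removal of each library were alternatives. Same-numbered libraries of different genotypes did not deviate together (correlations of -0.24 to 0.23), so the numbers pair nothing.

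Members, lists and tests were chosen with earlier results of these data known. Identifiers were paired with gene names from general knowledge and checked against RefSeq SLM_r2.1 symbols (41476 genes) by chromosome and gene order, within 10 percentile points. After the count table was at hand, 15 genes and further symbol synonyms were added and 1 identifier, that of SlZFP2, replaced. The text names up to 2 called genes per list and direction with the largest log2 fold change and every listed gene called between the lines; others named beside them, such as members not called, were chosen with their values seen. A listed ethylene gene, kept in the list's counts, is not reported here by name.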

Additional observations from a re-analysis of the deposited data

Results flagged for a closer look

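The direct contrast of the lines, which tests whether the change against WT differs between c2.11 and c2.5, called 249 genes, and 6 of them are given here. The calls of TAP3, GAD3 and Solyc01g010900.3 in it were lost without certain single libraries, as given above. The log2 difference, c2.11 minus c2.5, was 0.92 for TAP3 and -0.37 for GAD3. It was 10.20 for Solyc01g044365.1, a fitted value that depends on the prior count because c2.5 had 0 counts, 4.73 for Solyc10g049260.2, -3.13 for Solyc03g071800.2 and -2.04 for Solyc01g010900.3. The last 4 were selected by that difference, as the 2 largest per direction among the genes changed in c2.11 alone whose mean level reached 1 CPM in c2.11 or WT. For them the contrast is thus no separate test. Groups of 3 libraries were too small to search for single outlying libraries.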

How the results depend on the processing

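Of the 10569 genes called in c2.11 against WT, 2885 were called with at least a 2-fold change, and leaving out single libraries gave 9590 to 10456 calls, 4742 to 5215 higher and 4806 to 5265 lower. Scaled by total counts, 9952 genes rose and 2850 fell, a share of 77.7% upward. Leaving out single libraries gave 49 to 56 higher and 62 to 70 lower of the known genes. SlZFP2 kept its call in every alternative, with log2 fold changes of 2.44 to 2.498 without single libraries. The contrast of c2.11 with c2.5, 249 calls, was less stable: 444 with DESeq2, 626 with only the compared genotypes, 95 with at least a 2-fold change and 70 to 356 without single libraries. Genes of c2.11 alone numbered 99, and 175 with DESeq2, 227 with only the compared genotypes, 51 with total count scaling and 14 to 137 without single libraries. A filter of 1 CPM in 6 libraries gave 172 and 74 for these counts. With the replicate number as a block, 10390 genes were called against WT, 217 between the lines and 88 in c2.11 alone, and SlZFP2 stood at 2.47. The deviations of the libraries showed no pairing by that number and cannot exclude a weak one. Of the alternatives for the named genes 1257 kept direction and call, 69 lost the call, and 1 turned: JAF13 had 0.0459 with total count scaling (edgeR adjusted p = 0.580). Causes were not tested. Depth limits genes near the filter, such as CYP85A3, and genes with 0 or few counts in a genotype, such as JRE1 and the unannotated identifiers.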
